A study of Mus musculus with 7 samples.

Results

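The opioid system genes of the mouse islet are 4 genes for opioid peptide precursors, Penk, Pdyn, Pomc, and Pnoc, and 4 genes for their receptors, Oprm1, Oprd1, Oprk1, and Oprl1. Chromatin accessibility at these 8 genes, of 21938 protein-coding genes on the same chromosomes, was read from ATAC-Seq peak lists of FACS-sorted alpha, beta, and delta cells. A peak is a stretch in which MACS2 found more Tn5 transposase cuts than in the local background of the same library. All peaks that touch the GENCODE body of a gene or the 20 kb on either side of it were taken, which gave 352 peaks over 7 lists. Merging those with 1 bp or more in common across lists left 248 regions, of 834695 in the genome. The genes were selected on peak calls of these same lists, so their peaks are described here and no test is given.

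The cells came from healthy mice in which H2b-mCherry is driven by an Ins1 promoter fragment and YFP from the Rosa locus is switched on by Sst-Cre or Gcg-Cre, with animals pooled by sex. The mCherry and YFP alleles are shared by all groups, while alpha cells come from the Gcg-Cre cross, delta cells from the Sst-Cre cross, and beta cells from either. The study took different cell types from the same animals, so libraries of different groups can share mice, and which do, and the age of the mice, are not given in the sources used here. Beta cells were sorted by the Ins1-driven label, and alpha and delta cells by the Cre-activated YFP, which also stays on in cells that once expressed the Cre. The study left cells positive for both mCherry and YFP out of its samples. There are 2 alpha, 3 beta, and 2 delta libraries, each a biological replicate by its label. Each of the 3 beta lists was deposited under a name that points to alpha or delta cells, and the cell type of the label was used throughout.

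The lists differed in how they were filled. Between 75860 and 158066 peaks were present in 6 lists, and 518503 in beta 1, where 5.0% reached a -log10 q of 2, against 29.8% to 54.9% elsewhere. Past that threshold, the 3 beta lists held 25903, 32047, and 38058 peaks, and the other lists 41683 to 52057. Because of its many weak peaks, the main counts are also given without beta 1. The lists give no signal where no peak was called, so a gene without a peak is a missing call and not a measured absence of open chromatin.

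The labels were checked by peaks within 1 kb of the 5' ends of marker genes, called TSS peaks below. Of the 4 alpha markers, Gcg, Irx1, Irx2, and Ttr, all had one in both alpha libraries, 1 to 3 in the beta libraries, and 3 and 4 in the delta libraries. Of the 4 delta markers, Sst, Hhex, Rbp4, and Ghsr, all had one in both delta libraries, 3 in each alpha library and beta 1, and 0 in beta 2 and beta 3. The Sst peak passed a -log10 q of 2 in beta 1 and in neither delta library, where the other 3 delta markers did. The beta list did not set the beta libraries apart, with 3 to 5 of 6 genes there and 4 of 6 in every alpha and delta library, and Ins2 had a TSS peak in beta 3 alone. Ppy, the marker of pancreatic polypeptide cells, and the acinar genes Cpa1, Prss1, and Cela1 had none in any library. Ptf1a had a TSS peak in both alpha libraries, Sox9 in delta 2, Pecam1 in alpha 2, Kdr in delta 1, and Cd74 in 5 libraries. Of these, Kdr in delta 1 and Cd74 in delta 2 passed a -log10 q of 2 and the others did not.

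Opioid peptides are cut from larger precursors in secretory granules. Penk encodes the enkephalins, Pdyn the dynorphins, Pomc beta-endorphin together with ACTH and the melanocortins, and Pnoc nociceptin. Their receptors couple to inhibitory G proteins, which lower cyclic AMP, open inwardly rectifying potassium channels, and close voltage-gated calcium channels. The mu receptor is the product of Oprm1, the delta receptor of Oprd1, the kappa receptor of Oprk1, and the nociceptin receptor of Oprl1, and the delta receptor has no tie to delta cells in its name. Opioid peptides are known to alter insulin and glucagon release, and enkephalin and endorphin have been described in islet cells.

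Penk (chr4:4133531-4138819, minus strand) was the gene of this family with TSS peaks shared by replicates. All 3 beta libraries called a TSS peak at Penk, and no alpha or delta library did. The highest TSS peak ranked above 94.7% of the other peaks of the list in beta 1, 72.8% in beta 2, and 85.2% in beta 3. Counted from the top of each list, its rank was 27390 in beta 1, 24738 in beta 2, and 15355 in beta 3. Percentiles run high in beta 1 because of its many weak peaks, and they are not compared across lists as levels. The -log10 q of the highest TSS peak was 1.76 in beta 1, 2.91 in beta 2, and 5.43 in beta 3, with fold enrichments of 3.68, 4.41, and 5.92 over the local background. So the beta 2 and beta 3 peaks passed a -log10 q of 2 and the beta 1 peak did not.

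The 3 beta libraries overlapped in a single region, chr4:4138412-4138916 (mm10), which covers the 5' end of Penk at position 4138819 and the second annotated Penk start 342 bp inside the gene. In that shared region the beta 1 peak was weaker, with a -log10 q of 0.93 and a percentile of 84.9, since its highest TSS peak lies apart from it, 0.614 to 0.828 kb inside the gene. The non-coding antisense transcript A830012C17Rik starts 498 bp from the 5' end of Penk, and ATAC-Seq peaks carry no strand, so the starts of the pair cannot be told apart.

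This pattern, a TSS peak in all 3 beta and in no alpha or delta library, was met by 22 of all protein-coding genes, or 0.100%, Penk included. A second pattern asked for TSS peaks past a -log10 q of 2 in at least 2 beta libraries and no TSS peak at all in alpha and delta libraries. It did not ask for a peak in the remaining beta library, so its genes need not be among the 22. It was met by 6 genes, 0.0273%, again with Penk among them. With beta 1 set aside, a choice made after seeing the data, Penk was 1 of 41 genes (0.187%) with TSS peaks in beta 2 and beta 3 alone. The alpha and delta libraries called TSS peaks at more genes past this threshold, 50.8% to 56.0% of all protein-coding genes, than the beta libraries at 38.0% to 47.7%. As the pattern at Penk was known when the gene was chosen, these shares are a description.

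**Figure D1:**
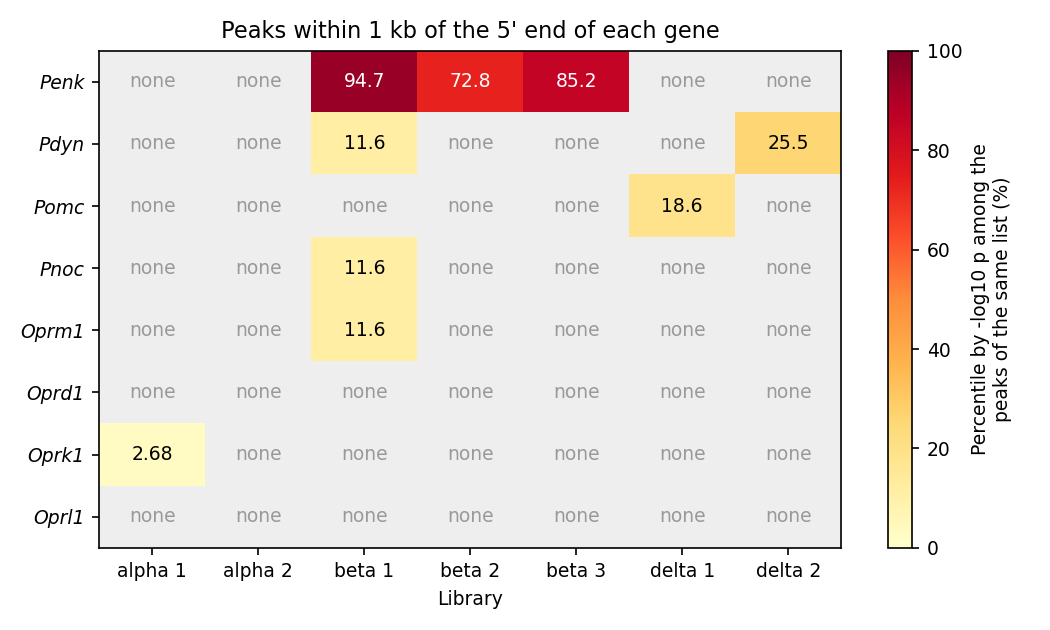
TSS peaks of the 8 genes (rows) in the 7 libraries (columns). Colour and number give the percentile of the best such peak by -log10 p among the peaks of its list, and grey cells have no peak. Penk has values of 94.7, 72.8, and 85.2 in the beta libraries and none elsewhere, and no other gene exceeds 25.5.

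The chromatin just upstream of Penk was shared by the cell types. The region chr4:4140083-4140480, whose near edge lies 1.26 kb upstream of the 5' end, was called in 6 of 7 libraries, with a -log10 q of 8.53 and 6.32 in the alpha libraries, 2.56 in beta 1, 4.28 in beta 3, and 10.84 and 9.18 in the delta libraries. Only beta 2 lacked it. The percentiles ran from 80.5 in alpha 2 to 96.4 in beta 1, and the fold enrichment from 4.29 in beta 1 to 8.43 in delta 1. Values of -log10 q depend on the depth of a library and are not compared across libraries as levels.

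A second shared region of Penk, chr4:4130887-4131360, begins beyond the 3' end of the gene and 7.46 kb from its 5' end. It was called in alpha 2, beta 2, beta 3, delta 1, and delta 2, with -log10 q values of 2.95, 1.59, 6.92, 7.06, and 1.93. The other 12 of the 15 Penk regions were each called in 1 library, 7 of them in beta 1 alone. A TSS window of 3 kb takes in the upstream region, and Penk then has a TSS peak in all 7 libraries. The difference between beta and the other libraries was thus seen at the 5' end and not in the wider window.

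**Figure D2:**
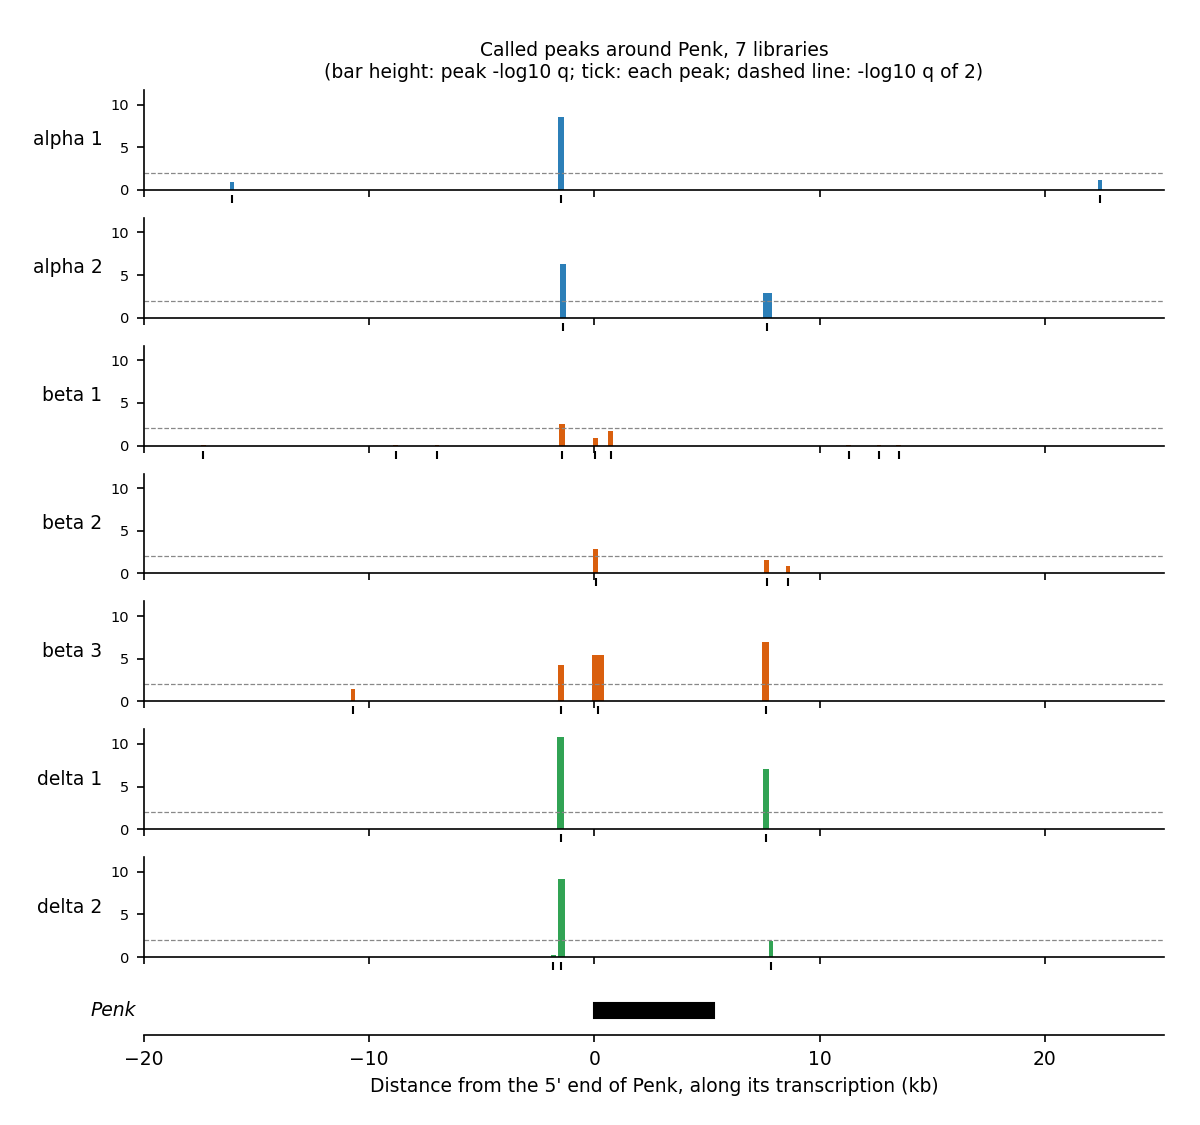
Called peaks from 20 kb upstream to 20 kb downstream of Penk, one panel per library, against the distance from its 5' end in kb along transcription. Bars give the -log10 q of each peak (short peaks are widened to stay visible), ticks mark every peak, the dashed line is a -log10 q of 2, and the black block is the gene body. Bars at the 5' end occur in the 3 beta panels, and bars just upstream of it in 6 panels, all except beta 2.

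The sequence below is the centre of the upstream Penk region, shown because it is the Penk region called in most libraries. The region at the 5' end, called in the beta libraries, was left out because its stretch holds 170 exon bases outside the coding sequence. It is the plus strand of mm10 at chr4:4140240-4140440, 201 bases around the summit with the highest -log10 q (delta 1), at -1.52 kb from the 5' end and within the body of A830012C17Rik. Capitals mark matches to the searched motifs, here 1 NEUROD E-box (CAGATG, read on the minus strand) that begins 11 bases before the summit.
Penk upstream: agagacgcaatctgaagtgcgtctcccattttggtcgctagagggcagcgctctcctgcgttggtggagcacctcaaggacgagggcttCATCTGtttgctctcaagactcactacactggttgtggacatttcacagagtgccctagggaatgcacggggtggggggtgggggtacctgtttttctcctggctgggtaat

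A set of 10 short motifs, none of which contains another, was searched on both strands in such stretches. They were the CRE (TGACGTCA), the enkephalin CRE core (TGCGTCA), AP-1 (TGACTCA), FOXA (TGTTTAC), a homeobox core (TAATTA), a NEUROD E-box (CAGATG), an RFX motif (GTTGCC), a GC box (GGGCGG), a REST motif (CAGCACC), and the TATA box (TATAAA). Neither CRE form was found in the upstream Penk stretch, and the sequence at the 5' end of Penk was not searched. The E-box occurs in 17.7% of the 48422 stretches of the same length at regions of at least 4 libraries, so its presence is common. A match is a string of letters and not a measured binding site. Of the 8 genes, Pdyn, Pomc, Oprm1, Oprd1, and Oprl1 were matched to the RefSeq promoters of GRCm38.p6, and Penk, Pnoc, and Oprk1 had no entry.

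By the percentiles of their TSS peaks over the 7 libraries, the protein-coding genes most like Penk were Gm16223, A530032D15Rik, and Fbxo40, at Euclidean distances of 16.0, 34.4, and 37.2 percentile points. Gm16223 had TSS peaks at the percentiles 97.6, 88.1, and 81.6 in the beta libraries and none elsewhere. A530032D15Rik had 95.4, 67.3, and 62.3 in the beta libraries and 25.1 in delta 2, and Fbxo40 had 86.2, 84.0, and 84.1 in the beta libraries and 27.5 and 20.8 in the alpha libraries.

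Pdyn, the dynorphin precursor gene (chr2:129686565-129699844, minus strand), had no peak at its 5' end that passed a -log10 q of 2. Weak TSS peaks were called in beta 1, with a -log10 q of 0.08, the median of that list, and a percentile of 11.6, and in delta 2, with 1.93 and 25.5. Of its 13 regions, 12 were called in a single library, and the other in beta 1 and beta 3 with -log10 q values of 0.08 and 1.43. The 1 Pdyn peak past the threshold was called in beta 3 at -10.76 kb from the 5' end (negative is upstream), with a -log10 q of 2.57. Both RefSeq promoter entries of Pdyn held none of the 10 motifs.

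Pomc (chr12:3954951-3960642, plus strand) had its recurrent peaks in a coding exon and downstream rather than at its 5' end. Its only TSS peak was called in delta 1, with a -log10 q of 0.95 and a percentile of 18.6. The exon region, chr12:3959721-3960359, was called in 6 libraries, all except beta 2, and passed a -log10 q of 2 in each. Its -log10 q was 12.51 and 17.61 in the alpha libraries, 5.52 and 14.04 in beta 1 and beta 3, and 10.80 and 6.58 in the delta libraries. It was the best peak in the Pomc window of each of these libraries, at percentiles of 74.7 in delta 2 to 98.1 in beta 1 and fold enrichments of 5.83 to 11.45.

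The second recurrent Pomc region, chr12:3972910-3973638, has its near edge 17.96 kb from the 5' end, downstream of Pomc and inside the neighbouring gene Efr3b. It was called in 6 libraries, all except beta 1, with -log10 q values of 4.52 and 4.62 in the alpha libraries, 3.04 and 2.48 in beta 2 and beta 3, and 0.95 and 3.21 in the delta libraries. The 7 other Pomc regions were each called in 1 library, 5 of them in beta 1. The RefSeq promoter of Pomc held a homeobox core, an E-box, a GC box, and a TATA box, each once, which 5.29%, 17.2%, 35.7%, and 13.6% of all 32851 promoter entries hold.

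The stretches at both recurrent Pomc regions are shown because recurrent peaks were called there and not at the start of the gene. The exon stretch is chr12:3959876-3960076, of which 184 of 201 bases are coding, with 64.7% G and C against a median of 51.2% over the stretches at regions of at least 4 libraries. Its capitals mark an RFX motif on the minus strand, 29 bases before the summit. The downstream stretch is chr12:3972952-3973152, with 44 coding bases of Efr3b and 57.7% G and C. Its capitals mark an E-box and 4 AP-1 matches that begin 17, 40, 63, and 86 bases after the summit. The 4 AP-1 matches are copies within 1 short sequence that is repeated end to end, so they are not separate finds. An AP-1 match occurs in 14.1% of the stretches at regions of at least 4 libraries. Both are given on the plus strand of mm10.
Pomc exon: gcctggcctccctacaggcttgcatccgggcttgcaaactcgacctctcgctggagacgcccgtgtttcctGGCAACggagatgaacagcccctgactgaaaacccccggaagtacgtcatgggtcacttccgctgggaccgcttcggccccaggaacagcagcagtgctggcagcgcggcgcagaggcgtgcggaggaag
Pomc downstream: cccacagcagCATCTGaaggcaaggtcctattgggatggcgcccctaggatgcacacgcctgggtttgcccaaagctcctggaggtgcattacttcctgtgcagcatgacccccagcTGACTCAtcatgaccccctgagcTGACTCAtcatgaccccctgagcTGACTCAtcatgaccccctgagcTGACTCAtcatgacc

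Pnoc, the nociceptin precursor gene (chr14:65400673-65425472, minus strand), had a TSS peak in beta 1 alone, with a -log10 q of 0.08 and a percentile of 11.6. Around it, however, 9 of 21 regions were called in at least 2 libraries, 13.9 per 100 kb, which is above 94.6% of the windows of all protein-coding genes. For regions of at least 4 libraries the window was above 53.3%. Of the 21 regions, 8 lie inside the neighbouring gene Zfp395, shared ones among them, so the rank is not of Pnoc alone. Beta 2 called no peak in the window. The 9 shared regions were not called by any whole cell type alone. The region of most libraries, chr14:65388138-65388935, has its middle 36.94 kb from the 5' end and lies inside the neighbouring gene Zfp395, with -log10 q values of 2.92 and 3.19 in the alpha libraries, 0.08 and 1.72 in beta 1 and beta 3, and 7.22 and 3.14 in the delta libraries.

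The second, chr14:65404093-65404631, lies in a Pnoc intron and was called in alpha 2, beta 1, beta 3, and delta 1, past a -log10 q of 2 in delta 1 alone, at 6.65. Upstream of Pnoc, chr14:65431196-65431423 was called in alpha 1, beta 1, and beta 3, with -log10 q values of 11.13, 0.08, and 3.84. A further upstream region, chr14:65433948-65434514, was called in beta 1 at 0.08 and in both delta libraries at 2.98 and 1.93. Of the 9 shared regions, 1 was called in both alpha libraries, 2 in both delta libraries, and 0 in all 3 beta libraries. The stretch at the region of most libraries, chr14:65388232-65388432 on the plus strand, is shown for its contrast with the Pomc exon, since it has 37.8% G and C and none of the 10 motifs.
Pnoc downstream: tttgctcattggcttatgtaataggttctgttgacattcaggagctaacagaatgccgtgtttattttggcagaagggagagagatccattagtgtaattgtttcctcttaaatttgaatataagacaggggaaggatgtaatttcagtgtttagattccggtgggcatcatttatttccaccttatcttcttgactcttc

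Among the receptors, Oprm1 (chr10:6758506-7038198, plus strand) held most of the regions, 129 of 248, in a gene body of 280.0 kb. Its 5' end was called in beta 1 alone, with a -log10 q of 0.08 and a percentile of 11.6. One alternative Oprm1 start, 30188 bp inside the gene, had a peak within 1 kb in alpha 2, with a -log10 q of 3.15. The recurrent regions lay far from these starts, between 158.24 and 279.16 kb into the gene. This 3' part overlaps the protein-coding gene Ipcef1, which is read from the other strand and starts beyond the 3' end of Oprm1, and all 8 Oprm1 regions of at least 4 libraries were inside Ipcef1. The 61 regions inside Ipcef1 included 16 of at least 2 libraries, and the 68 outside it included 1. Which of the overlapping genes these regions belong to cannot be told apart from peak positions.

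Both regions called in all 7 libraries were at the 3' end of Oprm1. The first, chr10:7033926-7034444, has its middle 275.68 kb from the 5' end of Oprm1, and its near edge is 18.03 kb from that of Ipcef1. It was the best peak in the Oprm1 window in 5 libraries, with -log10 q values of 39.78 and 22.02 in the alpha libraries, 4.95, 1.95, and 3.94 in the beta libraries, and 25.05 and 11.12 in the delta libraries. Its percentiles within the lists were 98.7 and 94.0 in the alpha libraries and 96.0 and 84.8 in the delta libraries, which overlapped. In the beta libraries they were 97.9, 64.7, and 81.5. The beta value of 97.9 comes from the list of 518503 mostly weak peaks, where percentiles run high. The other beta values, 64.7 and 81.5, lay below all alpha and delta values. Percentiles are not compared across lists as levels, so no order of the cell types is read from them. The fold enrichments were 15.20 and 11.29 in the alpha, 3.85 to 5.77 in the beta, and 10.97 and 8.02 in the delta libraries. In the other region of all 7 libraries, described next, beta was not the lowest. The folds there were 2.68 and 4.84 in alpha, 4.49, 4.55, and 7.0 in beta, and 7.64 and 7.55 in delta libraries. How many regions of the genome have beta lowest is not given. Over all peaks the median fold was 1.80, 3.39, and 3.21 in the beta lists, 4.10 in delta 2, and 2.87 to 3.0 in the remaining lists.

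The other region of all 7 libraries, chr10:7035557-7036109, had -log10 q values of 0.90 and 4.64 in the alpha libraries, 2.81, 3.03, and 8.29 in the beta libraries, and 13.75 and 9.99 in the delta libraries. Another neighbour at chr10:7037559-7037781, within a non-coding exon stretch of Oprm1, was called in 6 libraries, all except alpha 2, with -log10 q values of 2.63 to 5.21. Further into Ipcef1, chr10:7003876-7004283 reached 12.63 and 10.16 in the delta libraries, 1.13 and 2.03 in the alpha libraries, and 3.21 in beta 1, and was not called in beta 2 or beta 3. The region chr10:6934714-6935323 had 9.21 and 11.42 in the alpha libraries, 0.08, 5.31, and 5.40 in the beta libraries, and 1.93 in delta 2, and was not called in delta 1.

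At Oprm1, 1 region was called in both delta libraries alone and 1 in both alpha libraries alone. Both delta libraries and no other called chr10:6749044-6749601, whose near edge is 8.9 kb upstream, with -log10 q values of 0.95 and 2.96. Both alpha libraries and no other called chr10:6912717-6913115, with 5.77 and 0.18. In the genome 0.329% and 0.388% of regions had these patterns, and 0.0949% the pattern of all 3 beta libraries and no other that was seen at the 5' end of Penk.

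**Figure D3:**
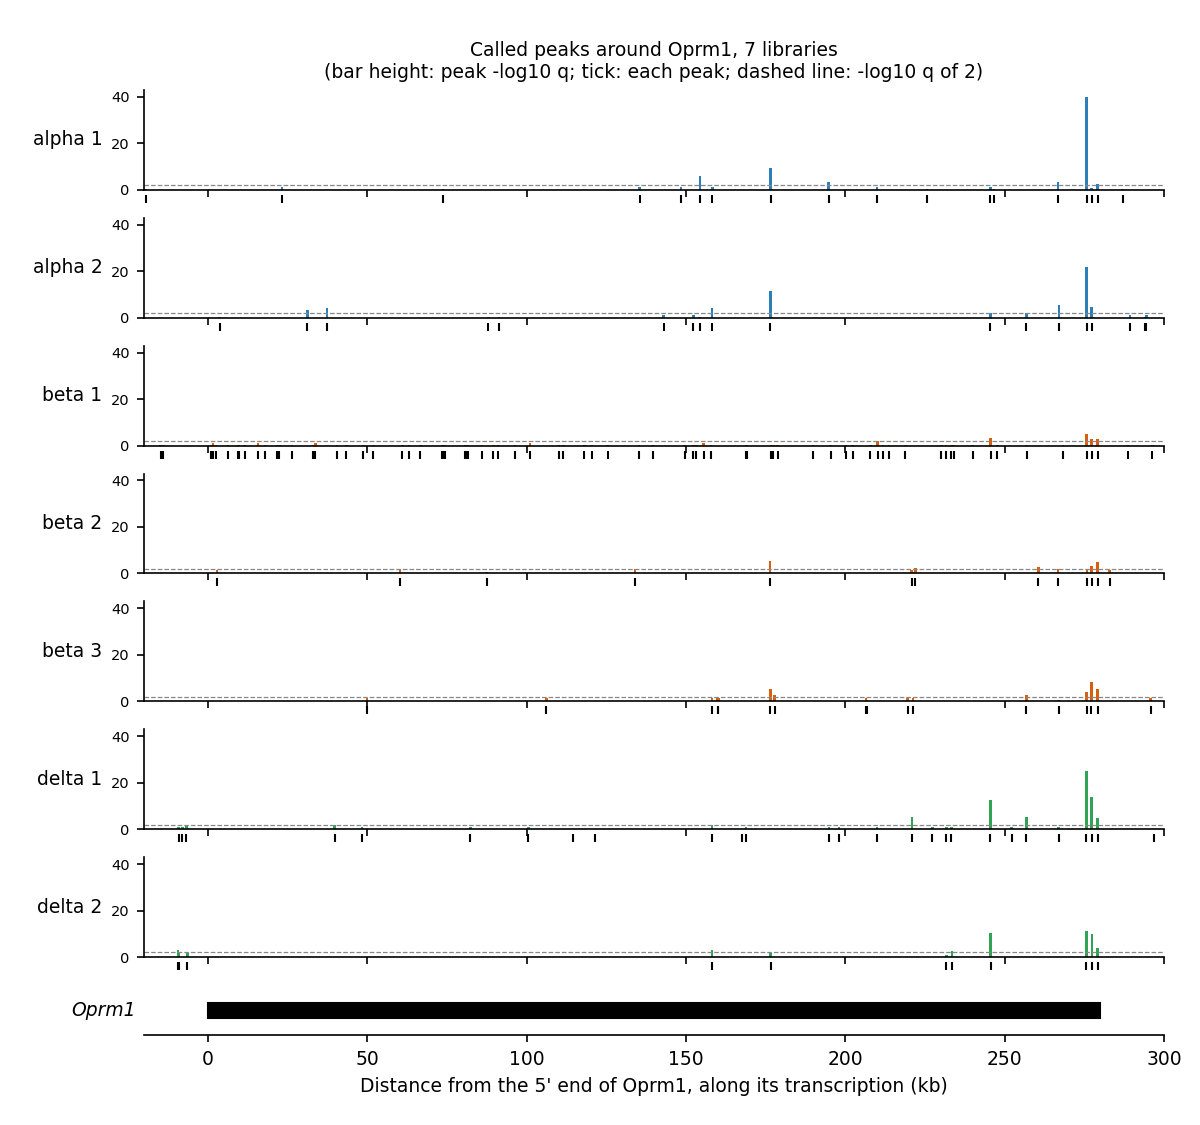
Called peaks from 20 kb upstream to 20 kb downstream of Oprm1, one panel per library, against the distance from its 5' end in kb along transcription. Bars give the -log10 q of each peak (short peaks are widened to stay visible), ticks mark every peak, the dashed line is a -log10 q of 2, and the black block is the gene body. The highest bars, at 275.68 kb, reach 39.78 in alpha 1, and the first 150 kb hold few bars above the line.

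The stretches at 3 of these regions are shown because they were called in 6 or 7 libraries and hold no untranslated exon bases. They lie on the plus strand of mm10 at chr10:7034129-7034329 and chr10:7035711-7035911 for the regions of all 7 libraries and at chr10:6934879-6935079 for the region near 176.51 kb, called in 6, all in introns of Oprm1 and inside Ipcef1. The first holds a FOXA motif that begins 64 bases after its summit (5.87% of comparable stretches hold one), the second holds no searched motif, and the third holds an E-box, a REST motif, and an AP-1 match on the minus strand. A REST motif occurs in 5.75% of comparable stretches.
Oprm1 at 275.72 kb: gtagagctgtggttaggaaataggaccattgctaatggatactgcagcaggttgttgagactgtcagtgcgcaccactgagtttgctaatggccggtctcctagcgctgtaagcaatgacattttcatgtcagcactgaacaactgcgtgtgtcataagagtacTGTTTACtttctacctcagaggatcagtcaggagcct
Oprm1 at 277.30 kb: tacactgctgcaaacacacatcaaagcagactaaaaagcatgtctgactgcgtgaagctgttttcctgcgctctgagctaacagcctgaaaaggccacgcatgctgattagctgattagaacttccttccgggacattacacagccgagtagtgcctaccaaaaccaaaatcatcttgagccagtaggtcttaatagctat
Oprm1 at 176.47 kb: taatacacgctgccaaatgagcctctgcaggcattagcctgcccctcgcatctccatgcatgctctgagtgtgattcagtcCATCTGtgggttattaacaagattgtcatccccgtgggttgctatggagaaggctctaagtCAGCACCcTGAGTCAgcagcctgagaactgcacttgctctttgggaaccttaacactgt

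Oprd1 (chr4:132110726-132144486, minus strand) lacked TSS peaks in all 7 libraries. Its RefSeq promoter has 79.3% G and C and 4 GC boxes. Of its 18 regions, 2 were called in at least 4 libraries. The downstream one, chr4:132092849-132093639, lies next to the pseudogene Gm13214 and was called in all libraries except beta 2, with -log10 q values of 2.16 and 5.60 in the alpha libraries, 3.46 and 0.52 in beta 1 and beta 3, and 2.98 and 3.21 in the delta libraries. The upstream one, chr4:132157236-132157570, whose near edge is 12.75 kb from the 5' end, was called in alpha 2, beta 1, beta 3, and delta 1, with 2.03, 1.10, 2.57, and 0.20. An intronic region, chr4:132126678-132126898, was called in 1 library of each cell type, with 1.26 in alpha 1, 5.52 in beta 1, and 2.98 in delta 1.

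The downstream stretch, chr4:132093185-132093385 on the plus strand, is shown as the most recurrent sequence around Oprd1. It holds an E-box 4 bases before the summit and an AP-1 match 33 bases after it, both on the minus strand.
Oprd1 downstream: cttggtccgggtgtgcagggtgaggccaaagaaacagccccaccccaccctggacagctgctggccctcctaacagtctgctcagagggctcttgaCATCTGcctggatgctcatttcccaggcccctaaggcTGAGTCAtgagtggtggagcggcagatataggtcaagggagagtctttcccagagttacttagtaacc

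Oprk1 and Oprl1 had no region called in 4 libraries. Oprk1 (chr1:5588466-5606131, plus strand) had 33 regions, 57.2 per 100 kb, more than 99.2% of gene windows, but 32 were called in a single library and 18 in beta 1 alone. Its TSS peak in alpha 1 had a -log10 q of 0.28, and the 1 peak past a threshold of 2 was called in beta 3, 24.45 kb from the 5' end, at 2.57. Alpha 2 and delta 2 called no peak in the window. The region of Oprk1 shared by libraries, in beta 2 and delta 1, had values of 1.37 and 0.95. Oprl1 (chr2:181715016-181720985, plus strand) had 10 regions, each in 1 library and 0 past a -log10 q of 2, and no TSS peak. Both delta libraries called no peak in its window. A region of all 7 libraries lay just outside it, 813 bp beyond the window edge.

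Over the 8 genes, 36 regions (of 248) were called in at least 2 libraries, where 16.0% of all merged regions are, and 16 in at least 4, where 5.80% are. Without beta 1 these counts were 32 and 13 of 135. The genome shares above include beta 1, so they are no baseline for these counts, and matching shares are not given. All 16 included at least 1 library of each cell type and at least 1 peak past a -log10 q of 2. The first trait is fixed by the group sizes for any region that misses at most 1 library. Genome shares of the 2 traits are not given, so neither is read as particular to these genes. The 2 regions of all 7 libraries compare with 2.13% of all regions, and the 113 called in beta 1 alone with 49.8%. The median gene window of the family held 4.22 regions of at least 2 libraries per 100 kb, against 6.44 over all protein-coding genes, and 2.61 of at least 4 libraries, against 2.79. Of the 16 recurrent regions, 8 were intronic, 4 downstream, 2 upstream, 1 in a coding exon, and 1 in a non-coding exon, and 0 touched a 5' end. These places are relative to the opioid gene, and some of the regions lie inside the neighbouring genes Ipcef1, Efr3b, or Zfp395. The places of recurrent regions over the genome are not given, so these counts are not read as unusual.

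**Figure D4:**
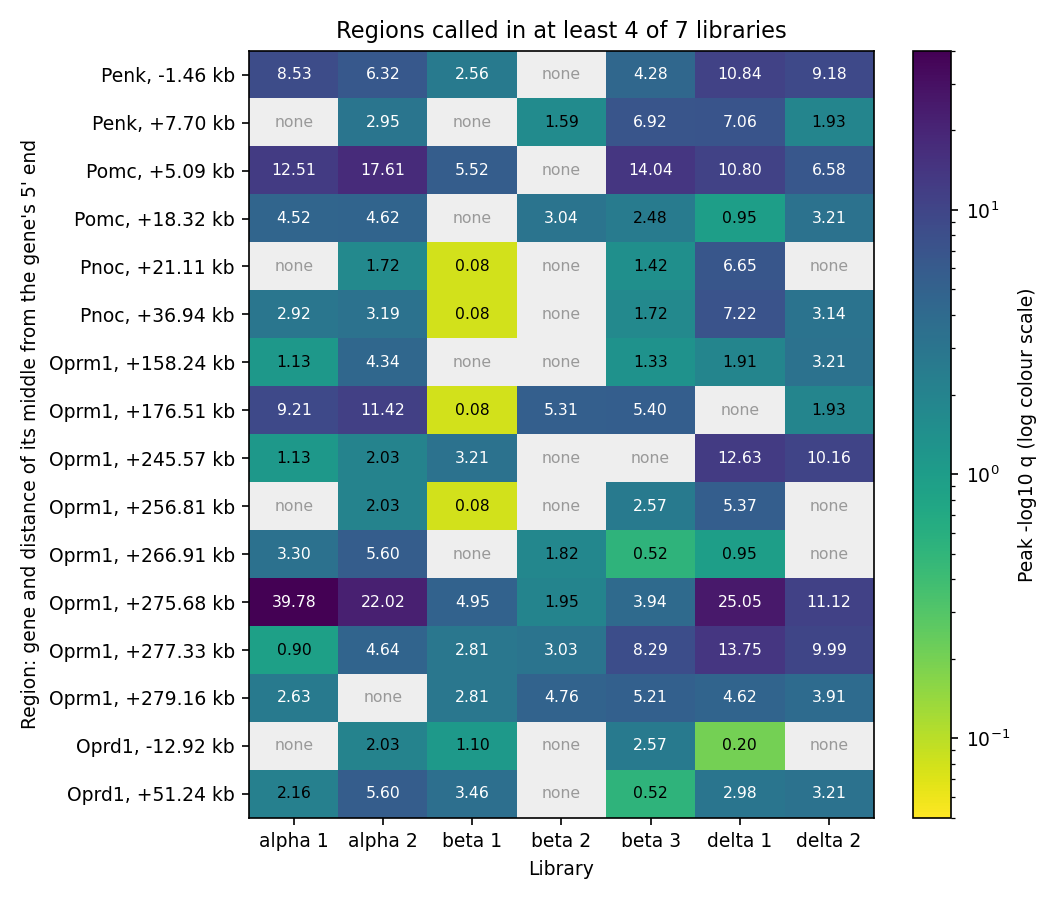
The 16 regions called in at least 4 of 7 libraries (rows, named by gene and the distance of the middle of the region from its 5' end, negative upstream) in the 7 libraries (columns). Colour on a log scale and number give the -log10 q of the best peak, and grey cells have no peak. The row of Oprm1 at 275.68 kb reaches 39.78, and beta 2 has the most empty cells.

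The 5' ends of the family were called in fewer libraries than the median gene. Of the 8 genes, 6 had a TSS peak in at least 1 library, where 82.7% of protein-coding genes do, but 1, Penk, had one in at least 2 libraries of a cell type, where 62.5% do. Oprm1 joined Penk in that count with a TSS window of 3 kb, and Oprk1 with any transcript start, each through beta 1 and beta 2. The median number of libraries with a TSS peak was 1.0 for the family and 6.0 for all protein-coding genes, and no member reached all 7 libraries, as 41.5% of genes do. Without beta 1, 4 genes had a TSS peak in any library, and no matching share of all genes is given. With all annotated transcript starts in place of the 5' end, 7 genes had a peak in any library, and Oprd1 had none.

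**Figure D5:**
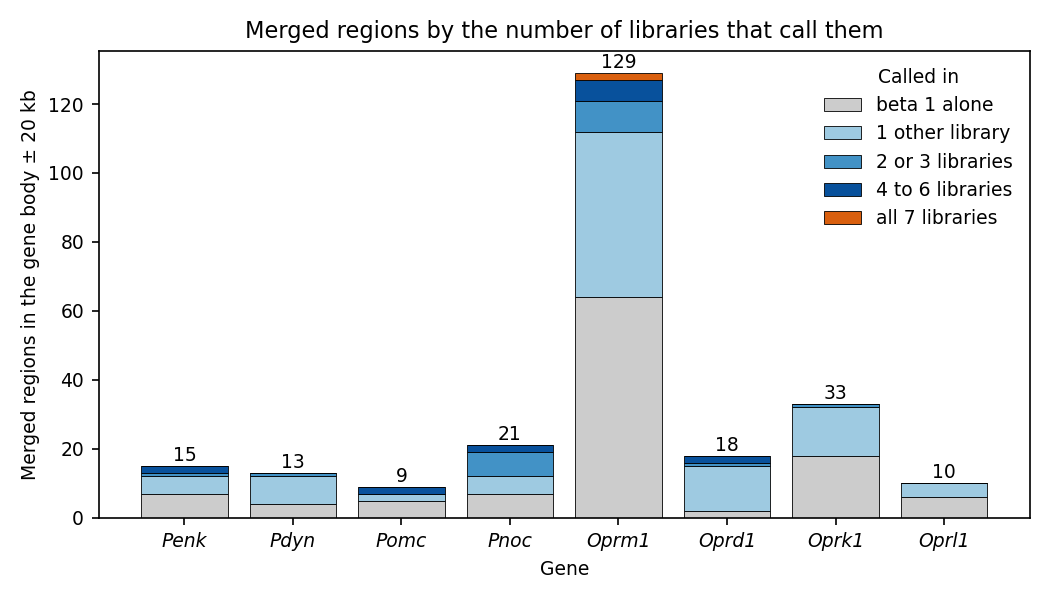
Number of merged regions in the body of each gene and the 20 kb on either side, split by the libraries that call them (beta 1 alone, 1 other library, 2 or 3, 4 to 6, or all 7). Oprm1 has 129 regions, of which 64 are in beta 1 alone and 2 in all 7 libraries, and Oprl1 has 10, all in 1 library.

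Per library, the windows of the 8 genes, 706.0 kb together, held 38 peaks in each alpha library, 136, 28, and 36 in the beta libraries, and 52 and 24 in the delta libraries. Relative to the windows of all protein-coding genes, this was 0.913 to 1.13 times the number of peaks per kb. Past a -log10 q of 2 there were 14 and 21 peaks in the alpha, 9, 7, and 16 in the beta, and 15 and 12 in the delta libraries. For these peaks the ratio was 0.741 and 1.15 in the alpha libraries, 0.949, 0.646, and 1.15 in the beta libraries, and 0.872 and 0.770 in the delta libraries. With so few peaks, no difference between cell types is read from these ratios.

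Other genes of the opioid pathway were counted in the same way. Of 39 listed genes, 23 (59.0%) had a TSS peak in all 7 libraries, against 41.5% of all protein-coding genes. These were 5 of 6 for precursor processing, such as the prohormone convertases Pcsk1 and Pcsk2 and the carboxypeptidase Cpe, and 8 of 9 for inhibitory G proteins and their regulators, such as Gnai1, Gnao1, and Gnaz. The counts were 4 of 6 for arrestins and receptor kinases, 4 of 11 for effectors such as the potassium channel Kcnj3 and the calcium channel Cacna1b, and 2 of 6 for peptide breakdown. Counting only peaks past a -log10 q of 2, 13 of the 39 genes (33.3%) had a TSS peak in all 7 libraries, against 31.1% of all protein-coding genes. The listed genes are thus not read as more open than others. The shares of the single lists, such as effectors (36.4%) and peptide breakdown (33.3%), rest on few genes. None of them is read as higher or lower than that of all genes. Ogfr, the opioid growth factor receptor gene, had one in 6 libraries, all except beta 2. Mme, the enkephalin-degrading endopeptidase neprilysin, and the channel genes Kcnj9 and Cacna1a had a TSS peak in 0 libraries.

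Of the 39 genes, 0 had TSS peaks in all libraries of 1 cell type and in no library of another, where 3.12% of protein-coding genes do, Penk among them. Of the 9 genes with TSS peaks in 6 libraries, 8 lacked one in beta 2, as did 66.7% of all protein-coding genes with 6. Among the 7 regions of 6 libraries at the opioid genes, 4 lacked beta 2, where 46.2% of such regions in the genome do. Absence from beta 2 alone, as at the upstream Penk region and the Pomc exon, was thus the most frequent pattern among genes and regions that miss a single library.

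The window edge also sets what was counted. The closest region inside an edge reached across it, at Pnoc, and the closest outside lay 532 bp away, also at Pnoc, in 6 libraries. A region of all 7 libraries lay 550 bp outside the Pomc window, and the closest region of at least 4 libraries to the Penk window was 63881 bp outside it.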

How the data were processed

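ATAC-Seq reads of 7 libraries were processed by the authors with Trimmomatic, Bowtie2, Picard, and MACS2 on mm10, per the labels and methods. Tool versions and the MACS2 threshold are not given in the sources used here, and the lowest -log10 p was 2.01 in every list. In the deposited lists the -log10 p and -log10 q, the fold enrichment (a ratio to the local background), and the score (10 times -log10 p) come from the authors' MACS2 calls in each library alone.

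Repeated intervals were counted once. Peaks were merged across lists (1 bp of overlap) and annotated with GENCODE vM21. The percentile of a peak is the share of the other peaks of its list with a lower -log10 p. A TSS peak lies within 1 kb of a gene's 5' end, and the lists hold no read totals. Reads per library are given by the study and were not used here. The members, lists, and rules were chosen with earlier results of these data known: all 8 genes are named, and pathway genes if open in 1 cell type and closed in another, or as examples. Sequences were read from GRCm38.p6 for up to 8 regions, those at a 5' end first and then those with most libraries, leaving out those with untranslated bases. Some genes of the marker and pathway lists are not reported here and were left out of the counts. No test was run. Python 3.11.15, pandas 2.3.3, and bedtools 2.31.1 were used, and the merging was tested on simulated data.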

Additional observations from a re-analysis of the deposited data

How the results depend on the processing

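With a -log10 q of at least 2, 1 gene (Penk) kept a TSS peak and 40 regions were left in the windows, and with the 50000 best peaks per list 2 genes and 61 regions. Windows without flanks held 142 regions and windows with flanks of 50 kb 401. A TSS window of 3 kb and any transcript start gave 7 genes each, with 2 rather than 1 called in at least 2 libraries of a cell type, and requiring a peak to cover 0.5 of a merged region left the number at 248, with 10 of at least 4 libraries (also 10 with the q threshold or the 50000 best peaks). Without 1 library at a time, the number of genes with a TSS peak was 4 to 6 and the number of regions 135 to 242, lowest without beta 1. Penk had TSS peaks in 3 libraries with 50000 peaks per list, 2 with the q threshold, and 7 in the 3 kb window. No paired analysis was possible because the results come from no test, and the labels do not say which libraries share animals. The lists give no read counts, so the smallest signal that would have been called is unknown, and how far depth sets the calls was not tested.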
